A study of Mus musculus with 6 samples.

Results

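The T cell identity and stemness regulators described here are 10 genes chosen by symbol, *Tcf7*, *Lef1*, *Bach2*, *Satb1*, *Bcl11b*, *Ets1*, *Id2*, *Id3*, *Zeb1* and *Tox*. All 10 were present among the 14379 genes of the deposited table, and all 10 were among the 10173 genes that passed the filter on low values, which each of the 10 passed in all 6 libraries. Gene expression was compared by RNA-seq between activated and naive CD4+ T cells, in a study of how the DNA repair enzyme Apex1 acts in T cells. Activated cells were CD4+ T cells taken at day 2 of culture with plate-bound anti-CD3 and soluble anti-CD28 antibodies, under conditions that do not favor any helper T cell subset (3 libraries). Naive cells were CD4+ T cells at day 0 (3 libraries). Both groups came from spleen and lymph nodes of WT B6 mice, sorted as naive CD4+ T cells, and both were wild type. There was no library of cells cultured without stimulation, so the effects of stimulation and of culture time cannot be told apart.

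These genes encode nuclear proteins that set and keep T cell fate. TCF-1 (from *Tcf7*) and LEF1 hold naive and memory T cells in a long-lived, self-renewing state, BACH2 represses effector genes, and BCL11B, ETS1 and SATB1 are needed for T cells to develop and to keep their identity. ID2 and ID3 have no DNA-binding region of their own and act by capturing E proteins, the transcription factors that bind the E-box motif. ZEB1 is a zinc finger repressor that also binds E-box-like motifs, and TOX is an HMG-box protein needed for CD4+ T cells to form in the thymus.

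The deposited values are on a log2 scale, and 1 unit is a doubling. The commonest value in every library was 1.99, called the base value here. If it stands for a pseudocount, it makes the fold changes of weakly expressed genes smaller. The table holds no read counts, so the depth of each library is unknown. A gene was called higher or lower at an adjusted p under 0.05 from limma, a linear model fitted across all genes, and a change of at least 1.5-fold. These p-values measure only the spread between libraries after the batch correction made by the authors, which can lower that spread. Naive replicates 1 and 2 held identical values off the base value for 352 genes, and activated replicates 2 and 3 for 670 genes, while no other pair within a group shared any. Naive replicate 3 and activated replicate 1 stood apart in their groups, with an SD of the log2 difference to the other libraries of 0.354 and 0.377 for naive replicate 3 and 0.288 and 0.283 for activated replicate 1. Between the libraries that shared values it was 0.159 in naive cells and 0.108 in activated cells. Known activation genes followed the labels: *Il2*, which encodes a T cell growth factor, averaged 11.23 ± 0.20 in activated cells and 2.82 ± 0.07 in naive cells (SD, n = 3 each), and *Il2ra*, *Cd44* and the transferrin receptor gene *Tfrc* rose by 2.26, 1.03 and 4.50 on the log2 scale. The early activation marker *Cd69* did not pass the test, with a log2 fold change of 0.34.

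Most of these regulators were lower in activated CD4+ T cells. Of the 10, 9 fell, 1 rose (*Id3*) and 0 were not called. Of all genes tested, 21.6% were called lower, 31.2% were called higher and 52.8% were called in either direction. The excess of higher calls over all genes depended on scaling, with 2618 higher and 2595 lower under quantile normalization and 2769 higher and 2525 lower under upper-quartile scaling. The median log2 fold change of the 10 was -2.01, against 0.13 for all tested genes. In all 10 the activated and naive libraries did not overlap, as was so for 76.8% of all tested genes (32.9% with activated libraries below naive ones and 43.9% with them above). The exact two-sided permutation test over libraries gave p = 0.1 for each, the smallest p that 3 libraries against 3 allow. In bulk RNA, fewer cells expressing a gene and less RNA of it per cell cannot be told apart.

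**Figure D1:**
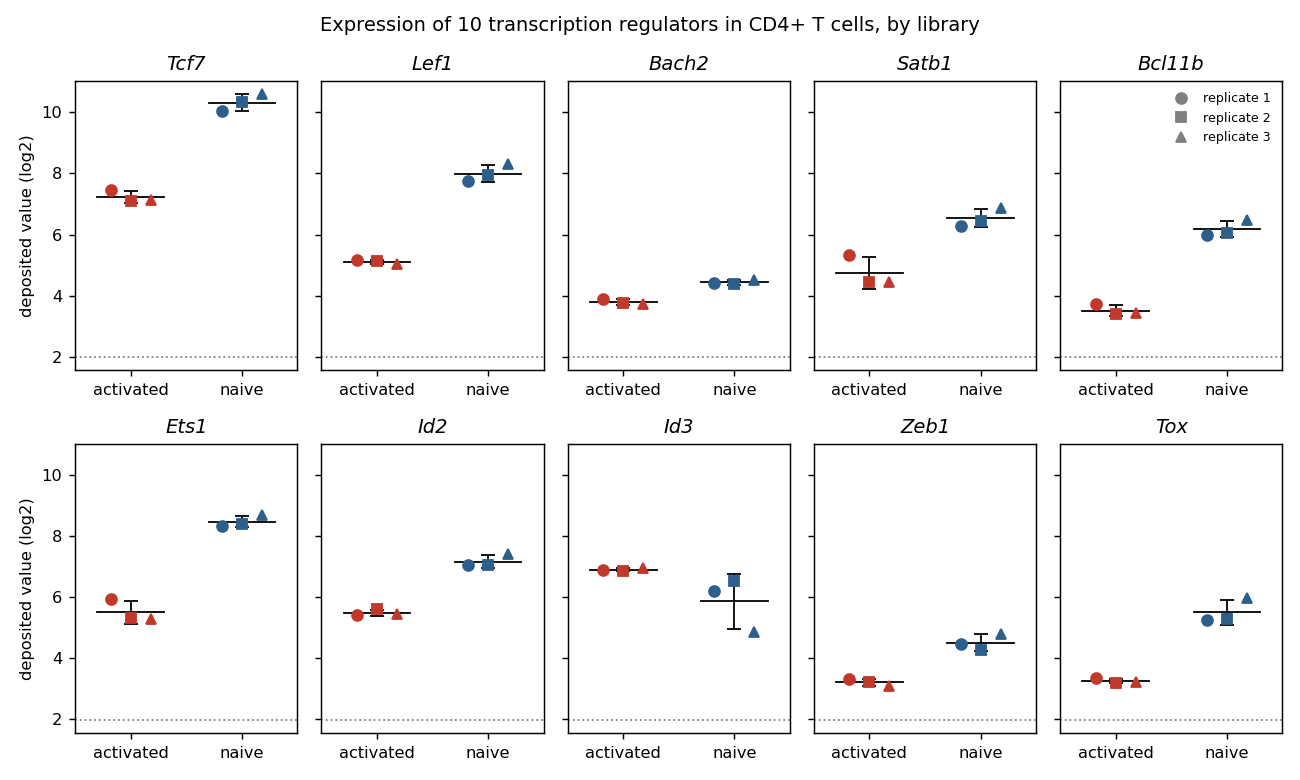
Deposited log2 value of each of the 10 regulators in 3 activated (left, red) and 3 naive (right, blue) CD4+ T cell libraries, with 1 panel for each gene. Symbols mark the replicate, the horizontal line is the group mean, the error bar is the SD, and the dotted line is the base value of 1.99; in 9 panels the activated libraries lie below all naive libraries, and in the *Id3* panel they lie above them, with naive replicate 3 far below the other naive libraries.

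*Tcf7* and *Lef1*, which encode HMG-box factors that partner with beta-catenin and with Groucho/TLE corepressors, both fell, and with *Ets1* they had the 3 lowest log2 fold changes of the 10. *Tcf7* lies on the minus strand of chromosome 11 from 52252371 to 52283014 (GRCm38/mm10, as are all positions here). It stood at 7.45, 7.09 and 7.13 in activated replicates 1, 2 and 3, against 10.04, 10.32 and 10.59 in naive replicates 1, 2 and 3. Every activated library was at least 2.59 log2 units below every naive library. The log2 fold change was -3.09 (SE 0.17, 95% confidence interval -3.49 to -2.70, limma adjusted p = 5.6e-07), and only 0.708% of tested genes had a lower one. *Tcf7* was nonetheless a strongly expressed gene in both states, ranking 840 of 10173 by mean level in activated cells and 102 in naive cells.

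*Lef1* (chromosome 3, plus strand, 131110471 to 131224356) had values of 5.15, 5.15 and 5.03 in activated replicates 1, 2 and 3, against 7.74, 7.94 and 8.30 in the naive replicates. The groups were 2.59 units apart, with activated libraries close to each other and naive replicate 3 the highest. Its log2 fold change was -2.88 (SE 0.16, 95% confidence interval -3.24 to -2.52, limma adjusted p = 5.2e-07). An antisense gene, Gm43352, covers 1208 of the exonic bases of *Lef1* (13.75%), and whether counting used the strand is not stated in the labels or methods, so reads of the 2 genes cannot be told apart there. The distance between the paralogs within a library, *Tcf7* minus *Lef1*, was 2.11 ± 0.18 in activated cells and 2.32 ± 0.05 in naive cells (SD, n = 3 each). This distance differed by -0.21, with p = 0.2 by an exact two-sided permutation test and an adjusted p of 0.2 over the 3 pairs of regulators compared. It was -0.13 without activated replicate 2 and -0.10 with a pseudocount of 0.1.

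*Tox* (chromosome 4, minus strand, 6686353 to 6991557), the third HMG-box gene, was weakly expressed in activated cells at 3.35, 3.20 and 3.24, against 5.24, 5.30 and 5.96 in naive replicates 1, 2 and 3. Naive replicate 3 exceeded the mean of naive replicates 1 and 2 by 0.69, and no activated library came near the naive range. It fell by 2.24 on the log2 scale (SE 0.19, limma adjusted p = 6.8e-06). With the base value subtracted and a pseudocount of 0.1 added, the log2 fold change was -2.86 (limma adjusted p = 1.5e-05). The paralog *Tox2* was listed at 1.77, 1.80 and 1.82 in activated cells, below the base value, against 3.28, 3.49 and 4.01 in naive cells, and was called lower. *Tox4*, a broadly expressed member of the family, did not pass the test (log2 fold change 0.21), and *Tox3* lay between 1.99 and 2.01 in all 6 libraries and was not tested.

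The list of TCF/LEF partners also held genes of the beta-catenin destruction complex and the paralogs *Tcf7l1* and *Tcf7l2*. Of 11 tested genes in this list of 16, 5 fell, 0 rose and 6 were not called. Their median was -0.48, and over all tested genes 21.6% were called lower and 31.2% higher. With pseudocounts of 0.1 and 0.5 above the base value 8 of the list fell and 0 rose, and with no fold threshold 8 fell and 1 rose. *Gsk3b* (-1.71) encodes the kinase that marks beta-catenin for destruction, *Bcl9l* (-1.68) a beta-catenin coactivator, *Tle4* (-1.37) a corepressor, *Axin2* (-1.21) a scaffold of the destruction complex and common TCF target, and *Apc* (-0.70) another scaffold. *Ctnnb1*, which encodes beta-catenin itself, was at 6.99, 6.40 and 6.36 in activated cells, against 5.98, 6.02 and 6.22 in naive cells. These groups did not overlap, but its log2 fold change of 0.51 was under the 1.5-fold threshold. It was the 1 gene called higher with no fold threshold, and it was also called higher without activated replicate 2 and without activated replicate 3. The TCF paralog *Tcf7l1* was close to the base value in every library, between 2.10 and 2.26 in activated cells and between 2.36 and 2.42 in naive cells, and *Tcf7l2* was not tested for low values.

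*Ets1* (chromosome 9, plus strand, 32636221 to 32757820) encodes the founding member of the ETS family, whose members bind a GGAA core. Its values were 5.94, 5.31 and 5.27 in activated replicates 1, 2 and 3, against 8.34, 8.40 and 8.69 in naive replicates 1, 2 and 3. Activated replicate 1 exceeded the mean of activated replicates 2 and 3 by 0.65, and was still 2.39 units below the lowest naive library. The log2 fold change was -2.97 (SE 0.20, 95% confidence interval -3.41 to -2.52, limma adjusted p = 1.5e-06). By mean, *Ets1* was the third most highly expressed of the 10 in activated cells, with 5.51 ± 0.38 (SD, n = 3), and the second in naive cells, with 8.48 ± 0.19 (SD, n = 3). In activated cells *Id2* averaged 5.49, and it stood above *Ets1* in activated replicates 2 and 3 (5.61 and 5.44).

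Other ETS genes changed in both directions. Of 16 tested, 7 fell, 4 rose and 5 were not called, and their median was -0.20 (all tested genes: 21.6% lower, 31.2% higher). *Fli1* (-2.24), *Elf4* (-2.22), *Elf1* (-1.56) and *Elk4* (-1.54) fell. *Erf*, an ETS repressor, rose by 2.05, and *Etv6*, another repressor, by 1.29. *Etv4* stood at 3.31, 3.03 and 3.08 in activated cells, against 1.60, 1.64 and 1.63 in naive cells, where it was below the base value. The 4 that rose include *Spib*, whose groups overlapped.

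*Bcl11b* and *Satb1* both act on chromatin in developing T cells. *Bcl11b* (chromosome 12, minus strand, 107910403 to 108003602) encodes a zinc finger protein that commits thymic precursors to the T lineage. It was at 3.72, 3.39 and 3.42 in activated replicates 1, 2 and 3, against 6.0, 6.05 and 6.48 in naive replicates 1, 2 and 3. The lowest naive library was 2.28 above the highest activated library. The log2 fold change was -2.67 (SE 0.17, limma adjusted p = 1e-06), and above the base value the mean linear level was 9.24-fold higher in naive cells. That is the highest of the 10 ratios on this scale, ahead of *Tcf7* with 8.80, *Ets1* with 8.31 and *Lef1* with 8.31, so the order of the changes depends on how the base value is handled.

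*Satb1* (chromosome 17, minus strand, 51736187 to 51833290), a genome organizer that folds chromatin into loops, had the widest spread among activated libraries. It was at 5.34, 4.44 and 4.45 in activated replicates 1, 2 and 3, against 6.28, 6.45 and 6.85 in the naive replicates. Activated replicate 1 exceeded the mean of replicates 2 and 3 by 0.90 but was 0.94 below the lowest naive one. *Satb1* fell by 1.79 on the log2 scale (SE 0.25, 95% confidence interval -2.36 to -1.21, limma adjusted p = 0.00017). *Bcl11a*, the paralog of *Bcl11b*, was not tested because it lay near the base value, with values between 2.11 and 2.27.

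Among 21 other tested transcription factors of the T lineage, 15 fell, 1 rose and 5 were not called. Their median was -0.72, and over all tested genes 21.6% were called lower and 31.2% higher. *Klf2*, which drives the genes for T cell recirculation, was at 2.64, 2.92 and 2.88 in activated cells, against 9.11, 9.39 and 8.99 in naive cells, a log2 fold change of -6.35. *Foxo1* (-3.42), which keeps T cells quiescent, *Klf3* (-2.80) and *Ikzf1* (-1.50), the gene for Ikaros, fell too. *Gfi1*, a repressor that restrains *Il7r*, was the gene that rose, by 2.84. The 15 that fell include *Runx3* and *Zbtb7b*, whose groups overlapped. *Foxo1* and *Klf2* thus changed more than any of the 10 regulators.

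*Bach2* and *Zeb1* encode repressors. *Bach2* (chromosome 4, plus strand, 32238804 to 32586108) had the smallest change of the 10. It had values of 3.90, 3.77 and 3.72 in activated replicates 1, 2 and 3, against 4.40, 4.38 and 4.52 in naive replicates 1, 2 and 3. The libraries within each group were close, and the gap between the groups was 0.48. The log2 fold change was -0.63 (SE 0.12, 95% confidence interval -0.90 to -0.37, limma adjusted p = 0.00093). This is 1.55-fold, just past the 1.5-fold threshold, and 1.77-fold in linear values above the base value. *Bach2os* overlaps 537 of its exonic bases on the opposite strand (5.4%), and smaller overlaps of this kind involve *Tox* (260 bases), *Zeb1* (198 bases) and *Satb1* (128 bases).

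BACH proteins bind DNA in pairs with small Maf proteins and compete with AP-1 at shared sites. The paralog *Bach1* fell by 1.41, to 2.52, 2.60 and 2.50 in activated cells, against 3.80, 3.81 and 4.23 in naive cells. Of 9 tested Maf and AP-1 genes, 6 rose, 1 fell and 2 were not called. Their median was 1.57, and over all tested genes 31.2% were called higher and 21.6% lower. *Junb* averaged 9.16 ± 0.42 in activated cells and 6.91 ± 0.52 in naive cells (SD, n = 3 each). *Mafg*, a small Maf gene, rose by 2.03, while *Batf3* at 4.90, 3.80 and 3.60 and *Maff* at 3.70, 3.41 and 3.39 in activated cells stood below the base value in naive cells. *Maf*, a large Maf gene linked to helper T cell subsets, was the gene that fell, by 2.61.

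*Zeb1* (chromosome 18, plus strand, 5591860 to 5775467) was the least expressed of the 10 in activated cells, with values of 3.31, 3.22 and 3.10, against 4.48, 4.27 and 4.80 in naive replicates 1, 2 and 3. All activated libraries were at least 0.95 below all naive ones. It fell by 1.31 on the log2 scale (SE 0.15, 95% confidence interval -1.65 to -0.96, limma adjusted p = 4.8e-05), and its mean linear value above the base value was 3.62-fold higher in naive cells. The paralog *Zeb2* was too low to be tested, between 2.24 and 2.42 in activated cells and between 1.99 and 2.14 in naive cells.

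The Id genes moved in opposite directions. *Id2* (chromosome 12, minus strand, 25093799 to 25097140), which is known for favoring effector T cells, was at 5.42, 5.61 and 5.44 in activated replicates 1, 2 and 3, against 7.05, 7.05 and 7.40 in naive replicates 1, 2 and 3. The activated libraries lay close together, and all were 1.45 or more below the naive libraries. *Id2* fell by 1.68 on the log2 scale (SE 0.14, 95% confidence interval -2.0 to -1.36, limma adjusted p = 6.4e-06).

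*Id3* (chromosome 4, plus strand, 136143497 to 136145755), which is known for marking memory precursors, was at 6.89, 6.86 and 6.97 in activated replicates 1, 2 and 3, against 6.22, 6.53 and 4.85 in naive replicates 1, 2 and 3. The activated libraries were close together, while naive replicate 3 lay below the mean of naive replicates 1 and 2 (a difference of -1.52). *Id3* was the only one of the 10 genes to be lowest in that library. *Id3* rose by 1.04 on the log2 scale (SE 0.36, 95% confidence interval 0.23 to 1.85, limma adjusted p = 0.026). Without naive replicate 3 its log2 fold change was 0.53 (limma adjusted p = 0.0057), under the fold threshold. Without activated replicate 1 it was 1.05 with an adjusted p of 0.073 from limma. The call was also lost with quantile normalization (0.65, limma adjusted p = 0.17), with upper-quartile scaling (0.90, limma adjusted p = 0.057) and with no filter on low values (limma adjusted p = 0.097).

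The difference *Id2* minus *Id3* within a library was -1.46, -1.25 and -1.53 in activated replicates 1, 2 and 3, against 0.84, 0.53 and 2.55 in the naive replicates. *Id3* thus stood above *Id2* in every activated library and below it in every naive library. The change of this difference was -2.72, with p = 0.1 by an exact two-sided permutation test and an adjusted p of 0.15 over 3 pairs. *Tcf7* minus *Id2* was 2.02, 1.48 and 1.70 in activated cells, against 2.99, 3.27 and 3.19 in naive cells. It changed by -1.42, with the same p = 0.1 by the exact permutation test (adjusted 0.15), and *Tcf7* stayed the more highly expressed of the pair in all 6 libraries.

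Of the E protein and other Id genes tested, 2 rose, 0 fell and 1 was not called (all tested genes: 31.2% higher, 21.6% lower). *Id1* was at 3.77, 3.50 and 3.48 in activated cells, against 2.05, 2.42 and 1.91 in naive cells, where replicate 3 was below the base value. *Tcf3*, which encodes the E proteins E12 and E47, was at 5.81, 5.02 and 5.10 in activated cells, against 4.74, 4.94 and 4.36 in naive cells, with a log2 fold change of 0.63 (SE 0.23, limma adjusted p = 0.033). Activated replicate 1 was the library farthest from the rest, and the call of *Tcf3* was lost without it (0.38, limma adjusted p = 0.092), without naive replicate 1 (0.66, limma adjusted p = 0.058) and without naive replicate 3 (0.47, limma adjusted p = 0.11). It was also lost with no filter on low values (limma adjusted p = 0.094), and under the 3 other scalings, where the log2 fold change was below the 1.5-fold threshold (0.48 with quantile normalization, 0.53 with median-of-ratios scaling and 0.50 with upper-quartile scaling). *Tcf12*, the gene for HEB, did not pass the fold threshold (-0.40).

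**Figure D2:**
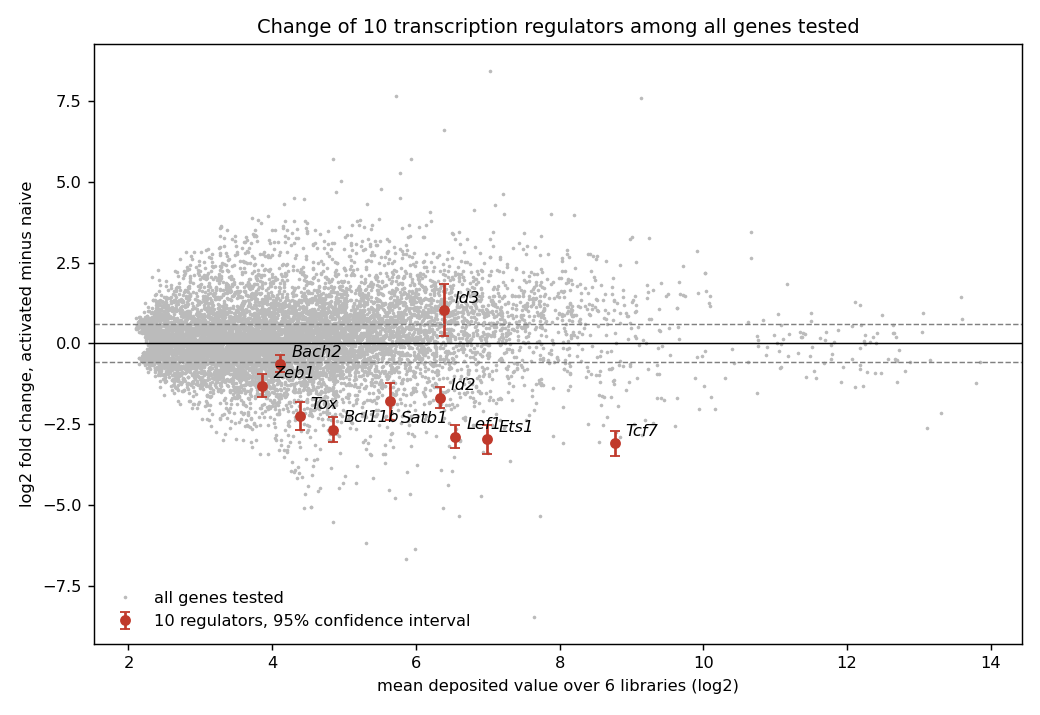
Log2 fold change, activated minus naive (vertical axis), against the mean deposited log2 value over 6 libraries (horizontal axis) for 10173 tested genes (gray) and the 10 regulators (red, with 95% confidence intervals), where dashed lines mark the 1.5-fold threshold. *Tcf7* at -3.09, *Ets1* at -2.97 and *Lef1* at -2.88 lie lowest among the 10, *Bach2* lies at the threshold, and *Id3* is the one above 0.

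The regulators also changed places in their order of expression. Since the column headings name FPKM, a value per length of gene, levels of different genes were set side by side. The values are those after batch correction, and whether the correction altered the order of genes was not tested. In activated cells the order by mean log2 value was *Tcf7*, *Id3*, *Ets1*, *Id2*, *Lef1*, *Satb1*, *Bach2*, *Bcl11b*, *Tox* and *Zeb1*, and the ranges of *Ets1* and *Id2*, of *Lef1* and *Satb1*, and of *Tox* and *Zeb1* overlapped. In naive cells it was *Tcf7*, *Ets1*, *Lef1*, *Id2*, *Satb1*, *Bcl11b*, *Id3*, *Tox*, *Zeb1* and *Bach2*. There the 4 genes from *Satb1* to *Tox* overlapped each with the next, as did *Zeb1* and *Bach2*. *Id3* stood second in activated cells and seventh in naive cells. Over naive replicates 1 and 2 alone, though, it averaged 6.37, level with *Satb1* and above *Bcl11b*. *Bach2* stood seventh in activated cells and last in naive cells. Over naive replicates 1 and 2 alone it averaged 4.39, and *Zeb1* was last with 4.38.

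Within the groups, 8 of the 10 genes were highest in replicate 1 among activated libraries, all but *Id2* and *Id3*, though for *Lef1* replicates 1 and 2 both rounded to 5.15. Of all tested genes 70.1% were highest there, and the median over tested genes was 4.37 in activated replicate 1, against 4.12 and 4.09 in activated replicates 2 and 3. Among naive libraries, 9 of the 10 were highest in replicate 3, all but *Id3*, as were 44.5% of all tested genes. With both of these libraries left out, the activated mean of *Tcf7* was still 3.07 log2 units below the naive mean, that of *Lef1* 2.75, that of *Ets1* 3.08 and that of *Satb1* 1.92 (2 libraries in each group).

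For each regulator, 1 other tested gene was nearest over the 6 libraries, measured as the Euclidean distance between centered log2 values. *Ly6e*, which encodes a small surface protein of lymphocytes, lay nearest to *Tcf7* (distance 0.16), *Card6* to *Lef1* (0.13), and *Cytip*, which encodes a regulator of lymphocyte adhesion, to *Bcl11b* (0.11). *Grap2*, the gene for the T cell receptor adaptor GADS, lay nearest to *Ets1* (0.29), *Lgals3bp* to *Satb1* (0.18), *Znrf2* to *Tox* (0.19) and *Atp6v1d* to *Id2* (0.07). The genes nearest to *Bach2* and *Zeb1* were *Zfp952* (0.02) and *Cep350* (0.03). *Lars2*, a mitochondrial leucyl-tRNA synthetase gene, was nearest to *Id3* (0.25) and rose by 1.15. With 2 groups and many genes changing, such a likeness over 6 libraries is a description of these libraries only.

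Genes that mark naive and recirculating T cells fell with the regulators. Of 15 tested, 13 fell, 1 rose and 1 was not called, with a median of -2.67 (all tested genes: 21.6% lower, 31.2% higher). *S1pr1* (-6.67), the receptor by which T cells leave lymph nodes, *Igfbp4* (-5.09) and *Il7r* (-4.67), the receptor for the survival cytokine IL-7, were among those that fell. *Ccr7* fell by 0.73, with overlapping groups, since activated replicate 1 stood at 8.60 and naive replicate 3 at 8.59. *Btla*, an inhibitory receptor gene, was the one that rose, by 0.95.

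Among 16 effector regulators and products, 11 rose, 1 fell and 4 were not called. Their median was 2.25, and over all tested genes 31.2% were called higher and 21.6% lower. *Ifng* rose by 3.52, *Irf4*, a factor induced by T cell receptor signals, by 3.21, *Tbx21*, the gene for the Th1 factor T-bet, by 3.15, and *Il12rb1*, an IL-12 receptor chain, by 3.13. *Prdm1*, which encodes BLIMP-1 and is repressed by BACH2, was close to the base value in activated cells, at 2.02, 2.05 and 2.03, against 2.88, 2.87 and 2.89 in naive cells, and was called lower.

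**Figure D3:**
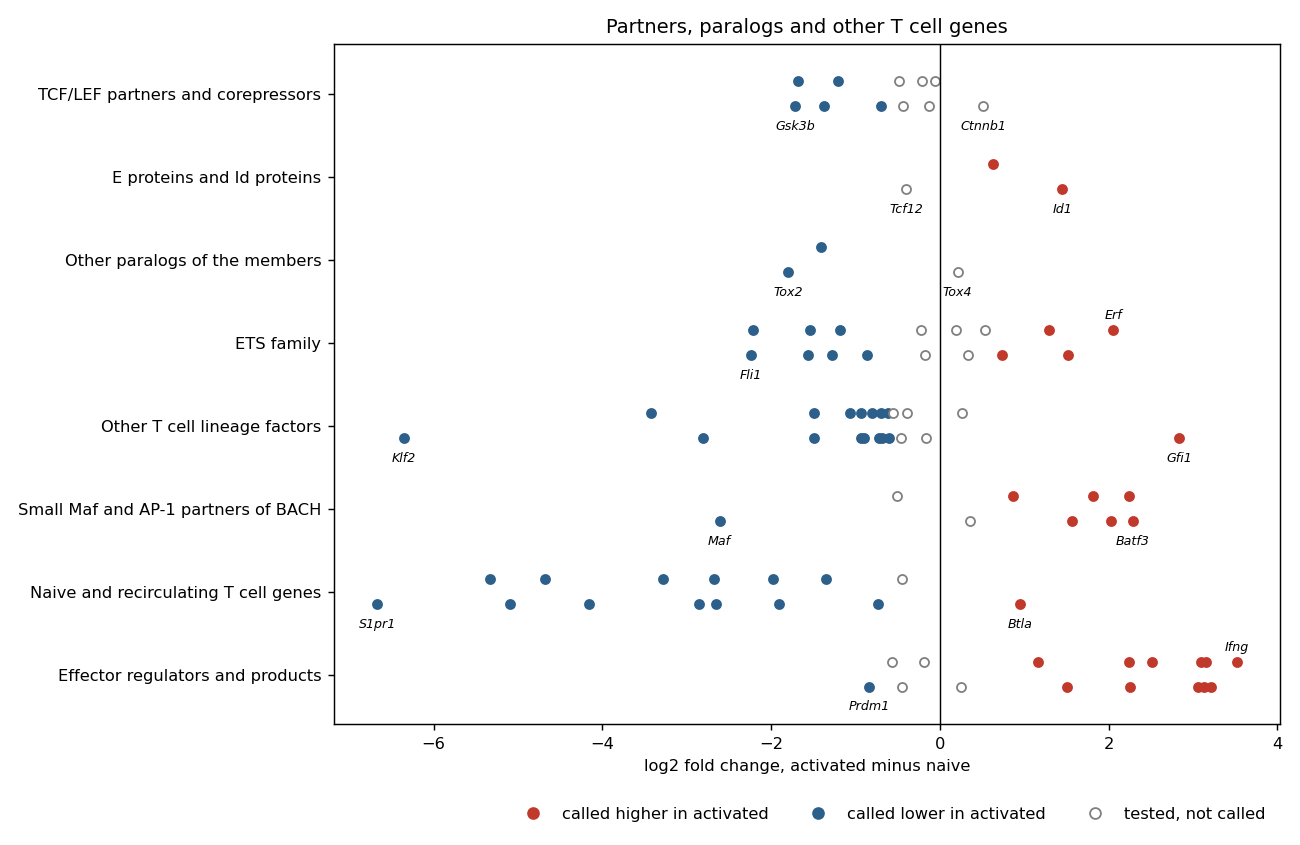
Log2 fold change, activated minus naive, of every tested gene in 8 lists of partners, paralogs and other T cell genes, 1 point for each gene, red if called higher, blue if called lower and open if not called. The naive and recirculating genes lie mostly to the left (13 of 15 fell) and the effector genes to the right (11 of 16 rose), while the TCF/LEF partners have a median of -0.48 with 5 lower and 0 higher, and the ETS genes a median of -0.20 with calls on both sides. Over all tested genes, 21.6% were called lower and 31.2% higher.

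Markers of CD4+ T cells were also lower in activated cells. Their summed linear value above the base value lay between 1828 and 2109 in activated cells and between 5274 and 5825 in naive cells. Of the 8 markers, 7, among them *Cd4* (-1.45) and *Cd3e* (-2.23), were lower in all activated libraries than in all naive ones. Over all tested genes, 32.9% were lower in this way and 43.9% were higher in all activated libraries, which bears on all marker counts here. Summed myeloid markers (8 genes) ran from 8.85 to 20.6 in activated cells and from 35.6 to 75.7 in naive cells, with 4 genes lower in all activated libraries and 2 higher. The 2 higher genes were near the base value and too low to be tested. *Adgre1* averaged 2.23 in activated and 2.09 in naive cells, and *Cd14* averaged 2.05 and 1.98. The 8 B cell markers summed to between 10.9 and 17.6 in activated cells and between 8.79 and 37.9 in naive cells, with 0 genes higher and 1 lower. The 8 markers of CD8+ T and NK cells summed to between 186 and 268 in activated cells and between 136 and 184 in naive cells, with 1 higher and 4 lower. The higher sum came with *Nkg7*, at 7.83 ± 0.30 in activated cells and 5.84 ± 0.22 in naive cells (SD, n = 3 each), while *Cd8b1* fell by 2.34, and *Klrd1* and *Klrb1c* were lower in all activated libraries.

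Regulatory T cell markers (7 genes) summed to between 1124 and 1821 in activated cells and between 309 and 376 in naive cells. Even so, 5 of them were lower in all activated libraries than in all naive ones, as were 32.9% of all tested genes. *Tnfrsf4*, the one that was higher, rose by 3.97, and *Foxp3* fell by 2.45, to 2.83, 2.39 and 2.34 in activated cells, against 4.83, 4.74 and 5.34 in naive cells. None of these markers was within 0.1 linear unit of the base value in 5 or more libraries. The part of these other cells in the changes of the 10 regulators was not tested.

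Sequence upstream of the regulators was read from RefSeq (GRCm38.p6), since 2 of the protein families here bind short known motifs. Of the 10 genes, 7 had a listed start, and *Ets1*, *Zeb1* and *Tox* had none. The 250 bases before the first listed start were searched on both strands for CANNTG, the E-box that E proteins bind, CGGAAG, a motif of ETS factors, and TATAA, the core of the TATA box (no motif contains another). The windows of *Bach2* (plus strand, chr4:32417185-32417434) and *Satb1* (minus strand, chr17:51833291-51833540) hold no annotated exon of their own gene. The bases just after both starts occur in GENCODE transcripts. These windows are shown with a motif match in capitals, and the others are left out for the reasons given below.
Bach2: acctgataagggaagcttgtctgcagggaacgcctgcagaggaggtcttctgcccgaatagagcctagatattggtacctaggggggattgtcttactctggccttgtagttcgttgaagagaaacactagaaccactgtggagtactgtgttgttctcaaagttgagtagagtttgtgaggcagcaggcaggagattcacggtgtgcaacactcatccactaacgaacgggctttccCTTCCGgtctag
Satb1: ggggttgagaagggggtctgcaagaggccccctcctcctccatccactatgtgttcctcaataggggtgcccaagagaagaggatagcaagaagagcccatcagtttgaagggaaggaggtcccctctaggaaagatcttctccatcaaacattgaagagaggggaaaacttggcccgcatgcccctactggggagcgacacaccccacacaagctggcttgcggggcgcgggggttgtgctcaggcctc

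In the *Bach2* window the ETS motif starts 12 bases before the listed start, on the opposite strand, and GC content was 50.4%. This start lies inside the gene, downstream of the first start that GENCODE annotates. The *Satb1* window (GC 58.0%) held none of the 3 motifs. Among the other genes with a window, CANNTG was found before *Tcf7*, *Lef1* and *Id2*, CGGAAG before *Id2* and TATAA before *Id3*. The windows of *Bcl11b*, *Id2* and *Id3* overlap exons of longer GENCODE transcripts of these genes, and the first listed start of *Lef1* is not in GENCODE. The window of *Tcf7* also lies outside its GENCODE exons, but holds an ATG 165 bases before the start whose reading frame has no stop codon through the start, so that it may be coding in part. These 5 windows are not shown. Over 27026 windows of the same length, 66.1% held CANNTG, 13.8% held CGGAAG and 23.5% held TATAA. A match describes the letters of the window and is not a measured site.

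**Figure D4:**
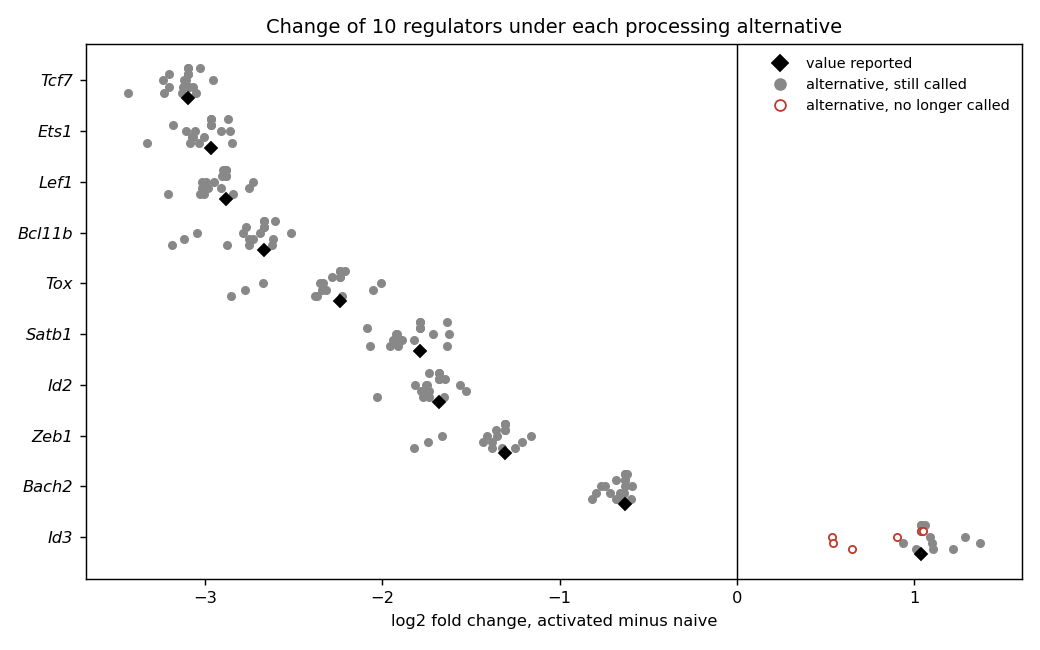
Log2 fold change, activated minus naive, of each regulator as reported (black diamond) and under 18 alternatives of processing or library choice (gray where still called, open red where no longer called). For 9 genes all alternatives stay on the same side and are called, whereas *Id3* ranges from 0.53 to 1.37 and loses its call in 6 of them.

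The call of 9 regulators held under all 18 alternatives, in which their log2 fold changes ranged from -3.43 to -2.96 for *Tcf7*, from -3.33 to -2.85 for *Ets1*, from -3.21 to -2.73 for *Lef1* and from -0.82 to -0.59 for *Bach2*. *Id3* kept its direction in all 18 and its call in 12.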

How the data were processed

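PolyA RNA was sequenced from 3 libraries of activated and 3 of naive CD4+ T cells, grouped by the submitters' sample titles, which number the replicates. The authors aligned reads to mm10 with HISAT2 2.0.5, and per the submitters' processing notes also used StringTie 1.3.3b and featureCounts 1.5.0-p3. The deposited table holds log2 values headed FPKM, named for the ComBat batch correction, and the pseudocount, the batches and the use of strand are not stated in the labels or methods. Without counts, depth and counting error are unknown.

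A gene entered the test if its linear value exceeded the base value by 1 unit or more in 3 or more libraries. The deposited values were fitted with limma 3.58.1 (lmFit, eBayes with a trend) in R 4.3.3, with no covariate, and adjusted by the Benjamini-Hochberg method over 10173 genes. The procedure was also run on simulated data with independent normal noise, without batch correction or values shared between libraries. That run cannot show how the p-values behave with these features of the deposited data. The other steps ran in Python 3.11.15, with scipy 1.17.1 for exact permutation tests, pandas 2.3.3 and numpy 2.4.6 for tables, and matplotlib 3.10.9 for figures. Linear ratios used values with the base value subtracted. Positions are from GENCODE M21.

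The 10 genes, the 8 gene lists and the cell type markers were chosen from general knowledge with earlier results of these data known. Genes named are the 10, in each list up to 4 called genes of largest change among those with separate groups, up to 2 that were called the opposite way, paralogs of the 10, the nearest gene to each, and markers. *Ctnnb1*, *Apc*, *Ccr7*, *Foxp3*, *Tnfrsf4*, *Nkg7*, *Cd8b1*, *Klrd1*, *Klrb1c*, *Adgre1*, *Cd14*, *Tfrc*, *Spib*, *Runx3*, *Zbtb7b* and *Tcf12* were named after their values were seen. A few genes under this rule are not reported here. Alternatives were pseudocounts of 0.1, 0.5 and 1 above the base value, no filter and a filter of 5 units, limma with no trend, scaling by upper quartile, by median of ratios or by quantiles, a replicate block, each library left out, naive replicate 3 and activated replicate 1 both left out, libraries that share values averaged, and a 2-fold threshold or none.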

Additional observations from a re-analysis of the deposited data

How the results depend on the processing

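Of the 10 regulators, the 9 that fell kept their direction and call in all 18 alternatives that refit the genes. *Id3* kept its direction but lost its call with no filter on low values (log2 fold change 1.04, adjusted p = 0.097 from limma), quantile normalization (0.65, adjusted p = 0.17 from limma), upper-quartile scaling (0.90, adjusted p = 0.057 from limma) and without naive replicate 3 and activated replicate 1 (0.54, under 1.5-fold). With single libraries left out it ranged from 0.53 to 1.37. The count of regulators that rose was therefore 0 in these 4 alternatives, and ranged from 0 to 1 with single libraries left out. A 2-fold threshold left 8 regulators that fell, without *Bach2*, and 1913 higher and 1181 lower genes among all tested, against 3175 and 2195. It left 7 called genes among other T lineage factors, against 16, and 1 among E protein and Id genes, against 2. The E protein and Id count was also 1 with no filter, under all 3 scalings and without naive replicate 3 and activated replicate 1, and ranged from 1 to 2 with single libraries left out. TCF/LEF partners had 8 called genes with pseudocounts of 0.1 and 0.5 and 9 with no fold threshold, against 5. The cause of these changes was not tested. Quantile normalization moved the median log2 fold change of all genes by -0.12 and upper-quartile scaling by -0.10, against 0.13 as reported. Changes under these settings are to be read beside that shift, but genes did not all move by the same amount. Under quantile normalization *Id3* went from 1.04 to 0.65 and *Tcf7* from -3.09 to -3.43. *Bach2* went from -0.63 to -0.68 and *Zeb1* from -1.31 to -1.38. The differences between paired regulators kept their sign in 11 alternatives.

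Correlations of deviations between activated and naive libraries of the same number were -0.011, -0.051 and -0.138. Between libraries of different numbers they ranged from -0.068 to 0.173. Batch correction may have removed an effect shared by libraries of the same number, so these values cannot show whether the numbers pair them. With the replicate number as a block, 3181 genes were higher and 2202 lower, all 10 regulators kept their calls, and *Id3* had a log2 fold change of 1.04 (adjusted p = 0.0017 from limma). The depth is unknown, so precision rests on 3 libraries a group.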
